A study of Mus musculus with 10 samples.

Results

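The genes described here are 41 control genes of the cell cycle: cyclins, cyclin-dependent kinases (CDKs), CDK inhibitors, retinoblastoma-family pocket proteins, E2F transcription factors and the enzymes and factors that act on CDK1. They were listed by name and role, with earlier results of these data known, and found by gene symbol among the 52636 Ensembl genes of the count table, where all 41 were present. The values are bulk RNA-seq read counts of nonclassical monocytes, the patrolling subset of monocytes, sorted from mouse bone marrow. There were 5 libraries labelled WT, from LAIR1+/+ animals, and 5 labelled LAIRKO, from LAIR1-/- animals and called LAIR1KO here. LAIR1 is an inhibitory leukocyte receptor that binds collagen. The libraries are labelled untreated. Each library came from 5000 to 10000 cells with a stated sort purity of 98%. The sources used here do not give strain, age, sex or how many animals stand behind a library, so each p-value refers to spread among these 10 libraries, which may be technical.

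D-type cyclins with CDK4 or CDK6, and E-type cyclins with CDK2, phosphorylate the pocket proteins RB1, RBL1 (p107) and RBL2 (p130), which then release E2F factors from their target genes. Cyclin A2 acts in S and G2 phase, and B-type cyclins with CDK1 drive mitosis under the control of the WEE1 kinase and the CDC25 phosphatases. CDK inhibitors of the CIP/KIP and INK4 families hold these kinases back. Circulating monocytes are regarded as non-dividing cells that come from dividing marrow progenitors, and most mitotic cyclins are made only in dividing cells.

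The 5 promoters below were picked by name from the members that were higher in LAIR1KO, and are not a sample of them. They are shown because genes of the G2 and M phases share the cell cycle genes homology region (CHR, letters TTTGAA) and CCAAT boxes, through which the MuvB complex and the factor NF-Y act. Each runs from 250 bases before to 20 bases after the RefSeq start on GRCm38.p6, 5′ to 3′ on the strand of the gene. Capitals mark the CHR letters, the CCAAT boxes and, as an E2F-type motif, TTTNNCGC, each read on either strand. The windows lie at chr13:100786467-100786736 (minus strand) for Ccnb1, chr9:70421535-70421804 (minus) for Ccnb2, chr10:69352893-69353162 (minus) for Cdk1, chr17:24251390-24251659 (minus) for Ccnf and chr14:46760291-46760560 (plus) for Cdkn3.
Ccnb1: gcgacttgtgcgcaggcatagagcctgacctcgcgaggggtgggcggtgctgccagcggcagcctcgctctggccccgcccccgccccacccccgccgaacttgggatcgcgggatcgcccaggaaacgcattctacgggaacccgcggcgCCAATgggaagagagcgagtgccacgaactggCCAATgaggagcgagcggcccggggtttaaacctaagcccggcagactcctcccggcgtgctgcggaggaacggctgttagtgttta
Ccnb2: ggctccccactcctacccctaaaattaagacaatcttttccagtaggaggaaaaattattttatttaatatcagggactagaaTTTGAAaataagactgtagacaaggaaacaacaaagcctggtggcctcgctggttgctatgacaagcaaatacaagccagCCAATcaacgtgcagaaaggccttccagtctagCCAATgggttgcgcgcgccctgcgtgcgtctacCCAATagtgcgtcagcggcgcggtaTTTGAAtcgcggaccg
Cdk1: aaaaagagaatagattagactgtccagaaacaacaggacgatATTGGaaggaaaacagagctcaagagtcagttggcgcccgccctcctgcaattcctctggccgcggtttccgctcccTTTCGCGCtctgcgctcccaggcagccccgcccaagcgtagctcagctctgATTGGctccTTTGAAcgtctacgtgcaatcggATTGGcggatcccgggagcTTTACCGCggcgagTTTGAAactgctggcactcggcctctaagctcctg
Ccnf: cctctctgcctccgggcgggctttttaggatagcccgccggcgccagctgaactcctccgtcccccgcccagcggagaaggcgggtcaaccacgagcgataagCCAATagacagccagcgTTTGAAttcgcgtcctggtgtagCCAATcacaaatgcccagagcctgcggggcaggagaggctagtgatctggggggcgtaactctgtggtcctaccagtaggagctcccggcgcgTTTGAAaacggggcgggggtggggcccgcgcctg
Cdkn3: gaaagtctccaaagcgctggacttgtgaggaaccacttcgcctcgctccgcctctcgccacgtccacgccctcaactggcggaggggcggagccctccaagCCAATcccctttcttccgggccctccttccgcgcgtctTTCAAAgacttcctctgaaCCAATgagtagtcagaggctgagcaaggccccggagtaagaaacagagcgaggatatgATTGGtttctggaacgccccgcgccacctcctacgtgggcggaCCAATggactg
Cdk1 held TTTGAA at -71 to -66 and at -15 to -10, counted from the start, with TTTNNCGC at -131 to -124 and at -29 to -22. Ccnb2 held TTTGAA at -167 to -162 and at 5 to 10, with 3 CCAAT boxes between -87 and -17. In Ccnf it stood at -130 to -125 and at -14 to -9, and in Cdkn3 on the other strand at -111 to -106. The Ccnb1 window held 2 CCAAT boxes and no TTTGAA. The promoter table had an entry for 30 of the 41 members. Motifs were counted on both strands in windows of 300 bases, from 250 before to 50 after the start, and a gene with more than 1 promoter (6 of the 30 members) counted if any of them held the motif. TTTGAA was in 9 of these 30, and in 4 of the 10 that were higher. It was in 20.2% of all 27025 genes counted the same way (17.9% of their 32851 promoters). The 4 higher members with it, Ccnb2, Ccnf, Cdk1 and Cdkn3, are all among the promoters shown. The other members with it were Cdkn2b, E2f2, E2f3, E2f8 and Rbl2, of which none was called higher and E2f2 was lower. CCAAT was in 18 of the 30, and in 7 of the 10, against 41.1% of genes. TTTNNCGC was in 9 of the 30, and in 3 of the 10, against 5.93% of genes; the full E2F letters TTTCCCGC (1.24% of genes) and TTTGGCGC (0.58%), which it includes, were in 4 and 2 members. These are matches of letters and carry no test.

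Total counts ran from 12106209 to 15356924 per library. Lair1 held 24186 counts over the WT libraries and 17 over the LAIR1KO libraries (two-sided exact permutation p = 0.00794 on mean CPM, the smallest that 5 against 5 can give), so each library matched its genotype. CPM values use TMM-scaled library sizes. All 12 nonclassical monocyte markers were measured, and their summed level was 10110 to 12830 CPM in WT and 7800 to 10920 CPM in LAIR1KO. By edgeR and limma voom 0 of the 12 passed and by DESeq2 1 was lower. DESeq2 called 510 of all 13469 tested genes lower, and edgeR and limma voom 226 each. All 12 log2 fold changes were below 0 (median -0.26), while 49.7% of all tested genes were above 0. Lower values at an unadjusted edgeR p under 0.05 were found for 5 of the 12 and for 8.92% of all tested genes. Along the first principal component of all tested genes (29.1% of the variance) LAIR1KO replicates 4 and 5 lay farthest from WT and LAIR1KO replicate 3 nearest.

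The members that were higher in LAIR1KO included all 5 cyclins and kinase of S, G2 and M phase and both G2/M transcription factors. No tested inhibitor of the CIP/KIP and INK4 families and no pocket protein passed. Of the 41 members 39 passed the filter on low counts, and each of these lay above the filter in every library. With edgeR's quasi-likelihood test, 14 of the 39 rose in LAIR1KO (35.9%) and 1 fell (2.56%) at an adjusted p under 0.05. Over all 13469 tested genes 5.11% rose and 1.68% fell, 6.79% in all. The median log2 fold change (LAIR1KO minus WT) was 0.49 over the 39 members and 0.00 over all tested genes. The groups did not overlap, with LAIR1KO above WT, for 10 of the 14 higher members, and with LAIR1KO below WT for the 1 lower member. Of all tested genes 5.61% had all LAIR1KO libraries above all WT libraries and 2.06% the reverse, 7.66% in all. In bulk RNA a difference in the share of cells of a type and one in RNA per cell cannot be told apart.

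Of 12 markers of myeloid progenitors, the dividing precursors of monocytes and granulocytes, 10 rose and 0 fell. Over all tested genes 5.11% rose and 1.68% fell. The marker list was chosen with earlier results of these data known, so this count is not an independent result. The summed level of the 12 progenitor markers was 559.5 to 1445 CPM in WT and 3248 to 6950 CPM in LAIR1KO. None of the 12 was at 0 in all libraries, and Mpo, the myeloperoxidase of granule precursors and the most abundant of them, was at 336 to 915 CPM in WT and 2362 to 5100 CPM in LAIR1KO. The part of these markers in the results below was not tested. Leaving out LAIR1KO replicates 4 and 5, the libraries highest in these markers, left 7 members higher and 0 lower (edgeR, 1.68% of all genes were then higher). Among the 14 higher members, replicate 5 was also the highest LAIR1KO library for 9 and replicate 4 for 5. A lower count therefore follows from leaving them out and does not speak to the part of the markers. Leaving out WT replicates 1 and 4 left 8 higher and 0 lower (1.89% of all genes were then higher). In these markers WT replicate 3 was lowest and WT replicate 2 highest, so this fit is no matched counterpart of the LAIR1KO one. The 7 members Cdk4, Cdk6, Ccna2, Ccnb1, Ccnb2, Ccnf and Cdk1 passed in the main comparison and in each of 21 alternative fits (adjusted p up to 0.0269).

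**Figure D1:**
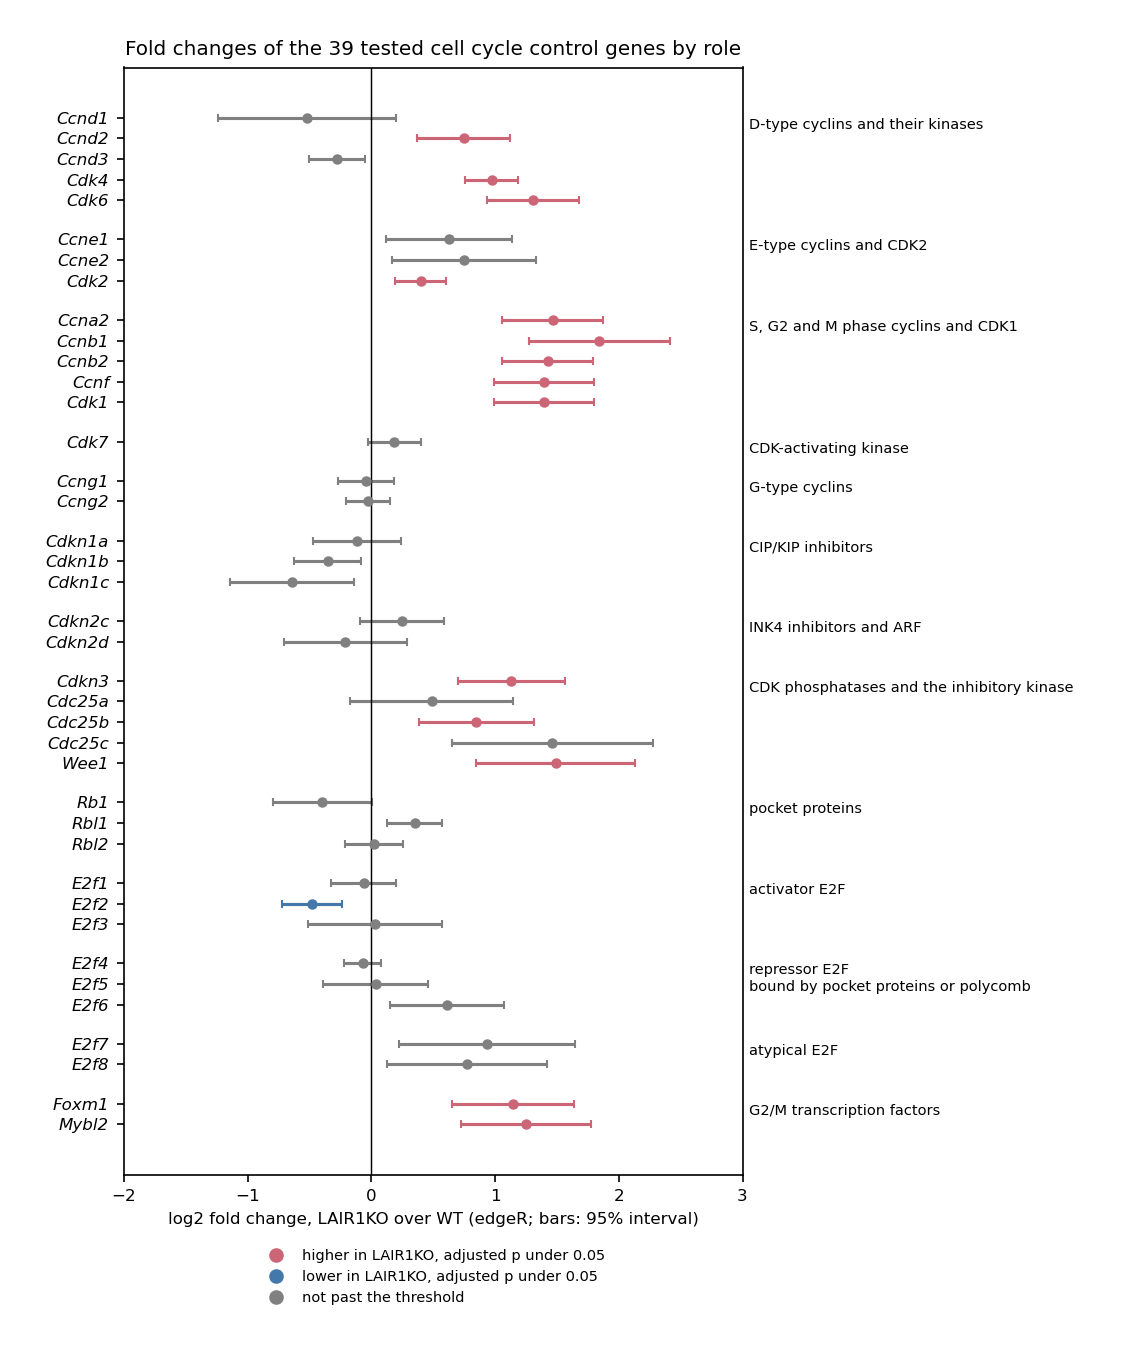
Log2 fold changes (x axis, LAIR1KO over WT, edgeR) of the 39 tested members (y axis, grouped by role), with 95% intervals as bars and colour for the call. The 5 cyclins and kinase of S, G2 and M phase lie between 1.40 and 1.84. The CIP/KIP and INK4 inhibitors lie between -0.64 and 0.25, and the E2F factors between -0.48 and 0.94.

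All 5 genes of the S, G2 and M phase group rose. Cyclin B1, encoded by Ccnb1 (ENSMUSG00000041431, GRCm38 chromosome 13, 100778650 to 100786570, minus strand), is the main mitotic partner of CDK1. It stood at 3.85, 4.54, 2.01, 3.66 and 3.10 CPM in WT replicates 1 to 5, and at 11.1, 10.4, 6.56, 16.4 and 17.2 CPM in LAIR1KO replicates 1 to 5. Every LAIR1KO library lay above every WT library, with replicates 4 and 5 highest and replicate 3 lowest. Its log2 fold change of 1.84 ± 0.29 (SE; edgeR adjusted p = 0.00259), a fold of 3.59, was the largest among the 39 tested members, on 220 counts over WT and 875 over LAIR1KO. Without LAIR1KO replicates 4 and 5 it was 1.45.

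Ccnb2, the second B-type cyclin (chromosome 9, 70407692 to 70421547, minus strand), was at 16.5, 30.3, 18.7, 24.4 and 26.1 CPM in WT. In LAIR1KO it was at 57.1, 70.2, 43.5, 73.9 and 67.0 CPM. The lowest LAIR1KO library exceeded the highest WT library, and the log2 fold change was 1.43 ± 0.19 (edgeR adjusted p = 9.36e-04). Cdk1, the kinase that both B-type cyclins activate (chromosome 10, 69335146 to 69352938, minus strand), had WT values of 19.8, 29.0, 18.1, 19.0 and 29.9 CPM. Its LAIR1KO values were 56.1, 66.1, 37.4, 69.1 and 76.4 CPM, again without overlap (1.40 ± 0.21, adjusted p = 0.00185). Per kilobase of exon, Ccnb2 averaged 27.9 CPM over the 10 libraries, Cdk1 8.53 CPM and Ccnb1 1.87 CPM.

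Ccna2, the cyclin of S phase and G2 (chromosome 3, 36564865 to 36572150, minus strand), was at 25.7, 39.8, 29.8, 28.1 and 30.8 CPM in WT, and at 79.1, 73.6, 49.99, 100.1 and 123 CPM in LAIR1KO. The fold of 2.76 (log2 1.47 ± 0.21, adjusted p = 0.00162) came with no overlap between groups. Exons of Ccna2 share 12.5% of their length with the opposite-strand gene Exosc9, and the strand setting of the counts is not given. Ccnf (chromosome 17, 24222198 to 24251484, minus strand) encodes cyclin F, an F-box protein that binds no CDK and marks proteins for degradation in G2. It was at 16.1, 29.5, 19.7, 21.5 and 26.7 CPM in WT and at 44.5, 59.9, 42.8, 76.2 and 75.7 CPM in LAIR1KO (1.40 ± 0.21, adjusted p = 0.00188). WT replicate 2, which had the highest progenitor marker sum in WT, was the highest WT library for Ccna2, Ccnb1, Ccnb2 and Ccnf, and WT replicate 5 for Cdk1. WT replicate 2 also had the highest erythroid marker sum, at 1402 CPM against 147 to 364 CPM in the other WT libraries.

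Summed over Ccna2, Ccnb1, Ccnb2, Ccnf and Cdk1, the level was 81.9, 133, 88.4, 96.7 and 117 CPM in WT replicates 1 to 5. In LAIR1KO replicates 1 to 5 the sum was 248, 280.2, 180.3, 336 and 359.6 CPM. The progenitor marker sum was 645, 1445, 559.5, 847 and 779 CPM in WT, and 3772, 4043, 3248, 5541 and 6950 CPM in LAIR1KO. Most of the progenitor sum was Mpo, which averaged 518 CPM in WT and 3401 CPM in LAIR1KO. The 5 LAIR1KO libraries fell in the same order on both sums, from replicate 3 through 1, 2 and 4 to 5. The WT libraries did not: from low to high they ran 1, 3, 4, 5 and 2 on the first sum and 3, 1, 5, 4 and 2 on the progenitor sum.

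**Figure D2:**
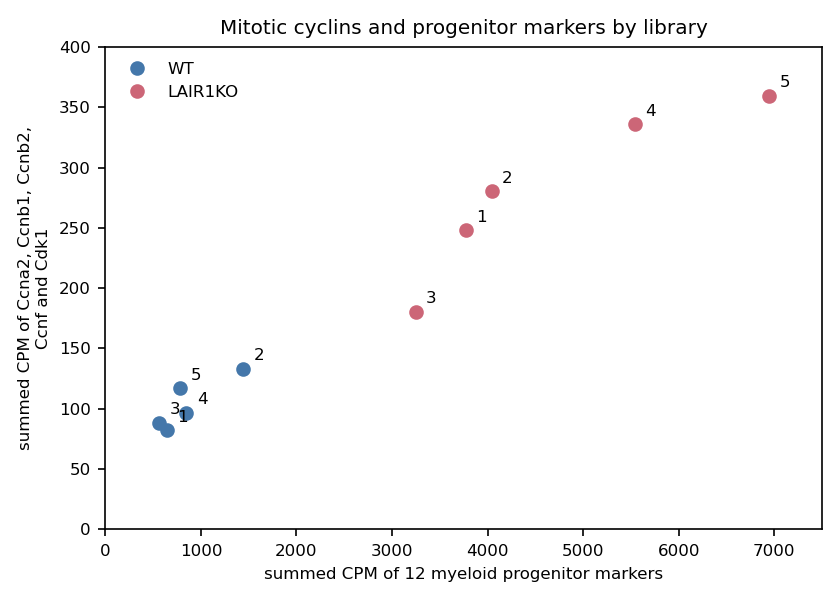
Summed CPM of the 5 S, G2 and M phase genes (y axis) against the summed CPM of 12 myeloid progenitor markers (x axis), 1 point per library, numbered by replicate. WT libraries lie between 81.9 and 133 CPM on the y axis and LAIR1KO libraries between 180.3 and 359.6 CPM. Most of the sum on the x axis is Mpo.

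The kinases of the D-type cyclins rose with the mitotic genes. Cdk4 (chromosome 10, 127063534 to 127067920, plus strand), which starts pocket protein phosphorylation in G1, was at 91.4, 109.8, 93.4, 106 and 90.5 CPM in WT. The LAIR1KO values were 189, 189, 156, 198 and 231 CPM, without overlap. Its log2 fold change of 0.97 ± 0.11 had the smallest adjusted p among the members (edgeR adjusted p = 4.61e-04). Exons of Cdk4 share 19.7% of their length with the opposite-strand gene Tspan31, which averaged 1616 counts against 2020 for Cdk4. Cdk6 (chromosome 5, 3341485 to 3531008, plus strand), the second D-cyclin kinase and one prominent in blood progenitors, was at 37.1, 38.4, 36.9, 34.4 and 41.6 CPM in WT. Its LAIR1KO values were 65.6, 87.1, 64.2, 119 and 131 CPM (1.31 ± 0.19, adjusted p = 0.00169). LAIR1KO replicates 4 and 5 were the 2 highest libraries for both kinases, and without them the log2 fold changes were 0.86 for Cdk4 and 0.94 for Cdk6. Per kilobase of exon, Cdk4 made up 91.8% ± 1.01 (SD, n = 5) of the summed level of both kinases in WT and 90.0% ± 1.98 in LAIR1KO, with ranges that overlapped.

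The D-type cyclins did not move together. Ccnd2, a D-type cyclin of blood progenitors and lymphocytes among other cells (chromosome 6), was at 37.2, 44.02, 41.6, 50.2 and 72.0 CPM in WT, and at 74.0, 96.6, 57.2, 82.3 and 102 CPM in LAIR1KO. LAIR1KO replicate 3 lay below WT replicate 5, and the other LAIR1KO libraries lay above all WT libraries. Ccnd2 rose by this test (0.75 ± 0.19, edgeR adjusted p = 0.0335), but did not pass once any of WT replicates 1 to 4 or LAIR1KO replicates 2, 4 or 5 was left out (adjusted p = 0.0670 to 0.0859). Ccnd3, the most abundant D-type cyclin, was at 197, 216, 247, 264 and 272 CPM in WT. In LAIR1KO it was at 242, 181, 196, 188 and 179 CPM, and did not pass (-0.28 ± 0.12, adjusted p = 0.178, 95% interval -0.51 to -0.05 before adjustment). Ccnd1 was at 3.45 to 10.7 CPM in WT and 2.82 to 7.46 CPM in LAIR1KO, and did not pass (adjusted p = 0.454).

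Per kilobase of exon, Ccnd3 held 80.5% ± 3.13 (SD, n = 5) of the D-type cyclin level in WT and 69.6% ± 6.39 in LAIR1KO. The share of Ccnd2 was 14.2, 15.6, 13.3, 14.2 and 18.7% in WT replicates 1 to 5, and 21.6, 32.6, 20.9, 27.8 and 33.0% in LAIR1KO. The Ccnd2 shares of the groups did not overlap, while those of Ccnd3 did, at 75.8 to 84.3% and 62.2 to 76.9%. Ccnd1 held 4.28% ± 1.69 and 3.21% ± 1.28. These shares carry no test.

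**Figure D3:**
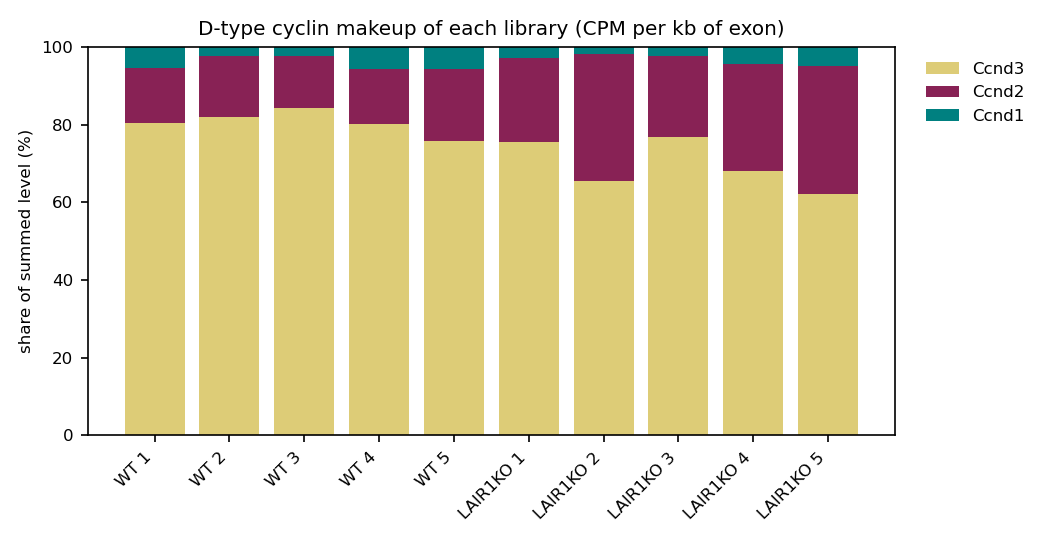
Share of the summed D-type cyclin level (CPM per kilobase of exon, y axis in percent) taken by Ccnd3, Ccnd2 and Ccnd1 in each of the 10 libraries (x axis). The Ccnd2 share is 13.3 to 18.7% in WT and 20.9 to 33.0% in LAIR1KO.

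In the E-type cyclin group, which acts at the start of S phase, 1 of 3 genes passed. Cdk2, the partner kinase of E-type cyclins and cyclin A2, was at 63.8, 60.9, 57.6, 78.0 and 67.6 CPM in WT and 88.7, 91.3, 76.4, 95.01 and 81.6 CPM in LAIR1KO. Only WT replicate 4 reached into the LAIR1KO range, above LAIR1KO replicate 3. The change was small (0.40 ± 0.11, edgeR adjusted p = 0.0391) and did not pass without WT replicate 1, 2, 3 or 5 or without LAIR1KO replicate 1, 2, 4 or 5, each left out alone (adjusted p = 0.0604 to 0.104). Nor did it pass after correction for GC content and length (adjusted p = 0.0690), without the filter (0.0701) or under upper-quartile scaling (0.0538). Ccne2 was at 12.5, 8.58, 10.7, 17.5 and 9.99 CPM in WT and at 19.4, 17.9, 8.22, 24.2 and 30.6 CPM in LAIR1KO. LAIR1KO replicate 3 was the lowest of the 10 libraries for Ccne2. The gene did not pass (0.75 ± 0.30, adjusted p = 0.157), and passed without LAIR1KO replicate 3 (0.95, adjusted p = 0.0222). Ccne1 ranged from 4.01 to 8.42 CPM in WT and from 5.24 to 12.8 CPM in LAIR1KO (0.63 ± 0.26, adjusted p = 0.178). Opposite-strand genes share 17.4% of the exon length of Ccne2 (Ints8, with 805 counts on average against 220.5) and 23.4% of that of Ccnd1 (495.5 against 80.5), so the values of these 2 genes are uncertain. The opposite-strand partners of Cdkn1c and Cdc25c averaged 1.5 and 11 counts.

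Of the phosphatases and the kinase that switch CDK1 on and off, 3 of 5 rose. Wee1, the kinase that keeps CDK1 inactive until mitosis, was at 4.35, 12.3, 7.07, 9.18 and 12.2 CPM in WT and 17.3, 21.7, 14.7, 29.8 and 43.4 CPM in LAIR1KO (1.49 ± 0.33, adjusted p = 0.0161). Cdkn3, a phosphatase that removes the activating phosphate of CDKs, was at 6.44, 5.98, 2.75, 4.83 and 4.18 CPM in WT. The LAIR1KO libraries gave 10.9, 9.68, 9.61, 12.0 and 10.7 CPM (1.13 ± 0.22, adjusted p = 0.00853). The LAIR1KO values of Cdkn3 lay close together, and neither gene had an overlap between groups. Without LAIR1KO replicates 4 and 5 the fold changes were 0.99 for Wee1 and 1.06 for Cdkn3, and neither passed (adjusted p = 0.111 and 0.0619). Wee1 also did not pass without WT replicates 1 and 4 (adjusted p = 0.0935).

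The CDC25 phosphatases remove the inhibitory phosphates that WEE1 and its relative PKMYT1 place on CDKs. Cdc25b was at 15.1, 11.9, 15.02, 6.21 and 17.7 CPM in WT and at 20.1, 20.5, 23.1, 30.4 and 24.5 CPM in LAIR1KO. Its groups did not overlap, and it passed narrowly (0.85 ± 0.24, edgeR adjusted p = 0.0489). It did not pass without WT replicate 1, 2 or 3 or any single LAIR1KO library (adjusted p = 0.0590 to 0.128), after correction for GC content and length (0.0563) or with RLE size factors (0.0535). Cdc25c was at 5.10, 2.10, 4.39, 1.24 and 7.51 CPM in WT and at 8.56, 16.3, 10.01, 14.9 and 6.30 CPM in LAIR1KO. WT replicate 5 lay above LAIR1KO replicate 5, and Cdc25c stayed just outside the threshold (1.46 ± 0.42, adjusted p = 0.0528). It passed without WT replicate 5 or LAIR1KO replicate 5 (1.81 and 1.61, adjusted p = 0.0238 and 0.0495), with DESeq2 (adjusted p = 0.00783) and with limma voom (adjusted p = 0.0385). Cdc25a ranged from 9.37 to 23.9 CPM in WT and from 10.9 to 46.9 CPM in LAIR1KO, and did not pass (0.49 ± 0.34, adjusted p = 0.440).

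Both transcription factors of the G2 and M phase program rose. Foxm1, a forkhead factor that drives mitotic genes, was at 14.1, 16.6, 13.5, 15.2 and 20.8 CPM in WT and 31.8, 31.3, 16.9, 48.7 and 49.0 CPM in LAIR1KO (1.14 ± 0.25, edgeR adjusted p = 0.0161). Mybl2, which encodes the MuvB partner B-MYB, was at 4.60, 7.91, 5.50, 4.90 and 10.7 CPM in WT and 15.6, 15.7, 9.28, 19.4 and 19.997 CPM in LAIR1KO (1.25 ± 0.27, adjusted p = 0.0145). For both genes LAIR1KO replicate 3 lay below WT replicate 5, and LAIR1KO replicates 4 and 5 were highest. With LAIR1KO replicates 4 and 5 left out neither gene passed (0.73 and 1.01, adjusted p = 0.112 and 0.107). The same held with WT replicates 1 and 4 left out (adjusted p = 0.112 and 0.102). Among the 14 higher members, LAIR1KO replicate 3 was the lowest LAIR1KO library for 13, LAIR1KO replicate 5 the highest for 9 and LAIR1KO replicate 4 the highest for 5.

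**Figure D4:**
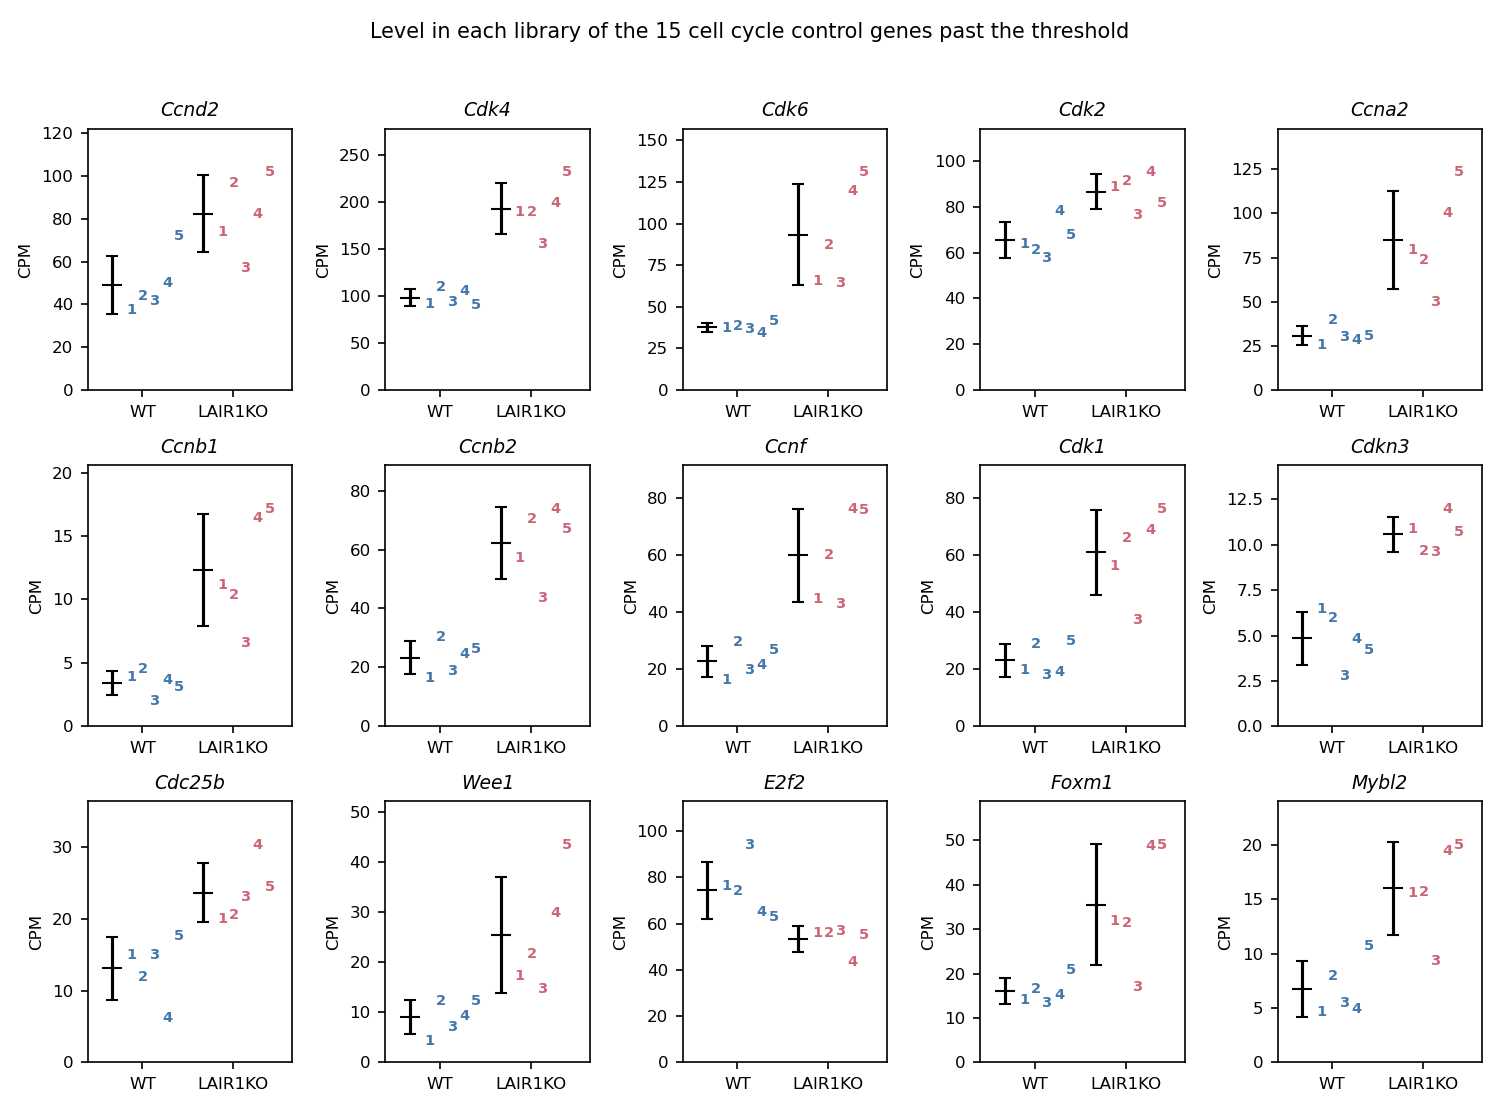
CPM (y axis, from 0) of the 15 members past the threshold in each library, with digits for the replicate number, and the mean ± SD of 5 libraries as black bars beside them. In 10 panels all LAIR1KO libraries lie above all WT libraries, and E2f2 is the panel in which they lie below.

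No CDK inhibitor of the CIP/KIP and INK4 families passed the test in either direction. Over all tested genes edgeR called 6.79%, so 0 of 5 is no departure from that share. Of the 5 tested members of the CIP/KIP and INK4 families, 0 were called by edgeR, DESeq2 or limma voom, and 2 had an unadjusted edgeR p under 0.05, both with lower values in LAIR1KO. Of all tested genes 21.8% had such a p, 12.9% with higher and 8.92% with lower values. Cdkn1a (p21), the inhibitor induced by p53, was at 68.4, 58.2, 47.3, 68.7 and 76.8 CPM in WT. In LAIR1KO it was at 76.4, 48.0, 76.8, 46.0 and 47.7 CPM, with LAIR1KO replicates 1 and 3 high and the other 3 low. Its 95% interval of the log2 fold change ran from -0.47 to 0.24 (adjusted p = 0.769). Cdkn1b (p27), an inhibitor of resting cells, was at 43.7 to 52.9 CPM in WT. In LAIR1KO replicates 1 to 5 it was at 45.6, 47.2, 38.7, 35.3 and 28.6 CPM. Its log2 fold change was -0.35 ± 0.14 (edgeR adjusted p = 0.152, 95% interval -0.62 to -0.08 before adjustment). LAIR1KO replicates 4 and 5 were lowest for Cdkn1b, and without them its log2 fold change was -0.19. Cdkn1c (p57) was low, at 3.76 to 7.66 CPM in WT and 2.80 to 5.24 CPM in LAIR1KO. Its log2 fold change was -0.64 ± 0.26 (edgeR adjusted p = 0.162, 95% interval -1.14 to -0.14 before adjustment).

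Cdkn2d (p19INK4d), an inhibitor of CDK4 and CDK6, had the highest level per kilobase of exon of all members, at 72.7 CPM per kilobase over the 10 libraries. It stood at 109 to 148 CPM in WT. In LAIR1KO it was at 87.0, 152, 166, 65.8 and 60.4 CPM, so replicates 2 and 3 lay above all WT libraries and replicates 1, 4 and 5 below them. The SD was 14.97 CPM in WT and 49.2 CPM in LAIR1KO, and the means did not differ past the threshold (-0.21 ± 0.25, adjusted p = 0.686). Cdkn2c (p18INK4c) was at 17.2 to 29.2 CPM in WT and 23.1 to 34.1 CPM in LAIR1KO (0.25 ± 0.17, adjusted p = 0.447). Cdkn2a, the locus of p16INK4a and ARF, had 0 counts in all 10 libraries, which at a limit of 3 counts per library allows up to 0.192 to 0.252 CPM. Cdkn2b (p15INK4b) had 6 counts over the WT libraries and 0 over LAIR1KO. These 2 genes were not tested.

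The pocket proteins did not pass. Rbl2 (p130), the pocket protein typical of resting cells, was at 124, 143, 148, 105 and 120.4 CPM in WT and 116, 117, 120.0, 143 and 155 CPM in LAIR1KO (adjusted p = 0.941, 95% interval -0.21 to 0.26). Rbl1 (p107), itself an E2F target, was at 84.2, 79.96, 78.5, 76.1 and 69.3 CPM in WT and 85.3, 82.7, 99.1, 113 and 116 CPM in LAIR1KO. Its log2 fold change was 0.35 ± 0.11 (edgeR adjusted p = 0.0856, 95% interval 0.13 to 0.57 before adjustment). Rbl1 passed when libraries were scaled by their totals (adjusted p = 0.0221). Rb1 was at 64.8 to 138 CPM in WT and 48.7 to 91.4 CPM in LAIR1KO (-0.39 ± 0.20, adjusted p = 0.282). Exons of Rb1 overlap those of the opposite-strand genes Rcbtb2 and Lpar6, the latter with 6801 counts on average against 1053.

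Of the 8 E2F factors 1 passed, and it was lower in LAIR1KO. E2f2, an activator E2F (chromosome 4, 136172394 to 136196057, plus strand), was at 76.1, 74.0, 94.0, 65.1 and 62.9 CPM in WT and 55.7, 56.0, 56.7, 43.4 and 55.1 CPM in LAIR1KO. Each LAIR1KO library lay below each WT library, and E2f2 fell by 0.48 ± 0.13 on the log2 scale (edgeR adjusted p = 0.0380). DESeq2 and limma voom also called it. It did not pass without WT replicate 1, 2 or 3 or LAIR1KO replicate 1, 2, 4 or 5, each left out alone (adjusted p = 0.0614 to 0.0946). With library totals in place of TMM its log2 fold change was -0.35 (adjusted p = 0.0896); under that scaling the median over all tested genes was 0.13.

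The other activators and the repressors showed no called difference. E2f1, the prototype activator, was at 37.5, 34.1, 48.0, 35.5 and 38.4 CPM in WT and 38.9, 35.6, 31.3, 34.3 and 45.7 CPM in LAIR1KO (95% interval of the log2 fold change -0.32 to 0.20, adjusted p = 0.848). E2f4, the repressor that works with p130 in resting cells, was at 120.4, 125, 124, 127 and 119 CPM in WT and 116, 116, 124, 113 and 116 CPM in LAIR1KO (interval -0.22 to 0.08, adjusted p = 0.646). The E2f4 values varied little within either group, and E2f4 held 55.9% ± 1.74 of the summed E2F level per kilobase in WT and 55.7% ± 4.83 in LAIR1KO. E2f3 and E2f5 were at 5.56 to 12.8 CPM in all libraries (adjusted p = 0.970 and 0.953). E2f6, a repressor that binds no pocket protein, was at 13.6, 17.1, 18.8, 18.8 and 21.1 CPM in WT and 22.4, 31.0, 15.4, 24.6 and 43.3 CPM in LAIR1KO. It did not pass (0.61 ± 0.24, adjusted p = 0.148), and passed without LAIR1KO replicate 3 (0.76, adjusted p = 0.0363).

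The atypical factors E2f7 and E2f8, which repress E2F targets late in S phase, had fold changes of similar size to those of E2f6 and did not pass. E2f7 was at 1.94 to 7.90 CPM in WT and 4.31 to 12.6 CPM in LAIR1KO (0.94 ± 0.36, adjusted p = 0.150). E2f8 was at 8.999 to 12.7 CPM in WT and at 11.1, 12.1, 8.88, 22.4 and 35.7 CPM in LAIR1KO replicates 1 to 5. LAIR1KO replicates 4 and 5 alone lay above the WT range for E2f8, and its log2 fold change was 0.77 ± 0.33 (adjusted p = 0.194), and 0.02 without those 2 libraries. Among the 24 tested members that did not pass, 7 had an unadjusted p under 0.05 with higher values in LAIR1KO and 3 with lower values. The matching shares over all genes that did not pass were not counted. With called members included, 21 of the 39 tested members had such a p with higher values and 4 with lower values. Over all tested genes, called ones included, these shares were 12.9% and 8.92%.

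**Figure D5:**
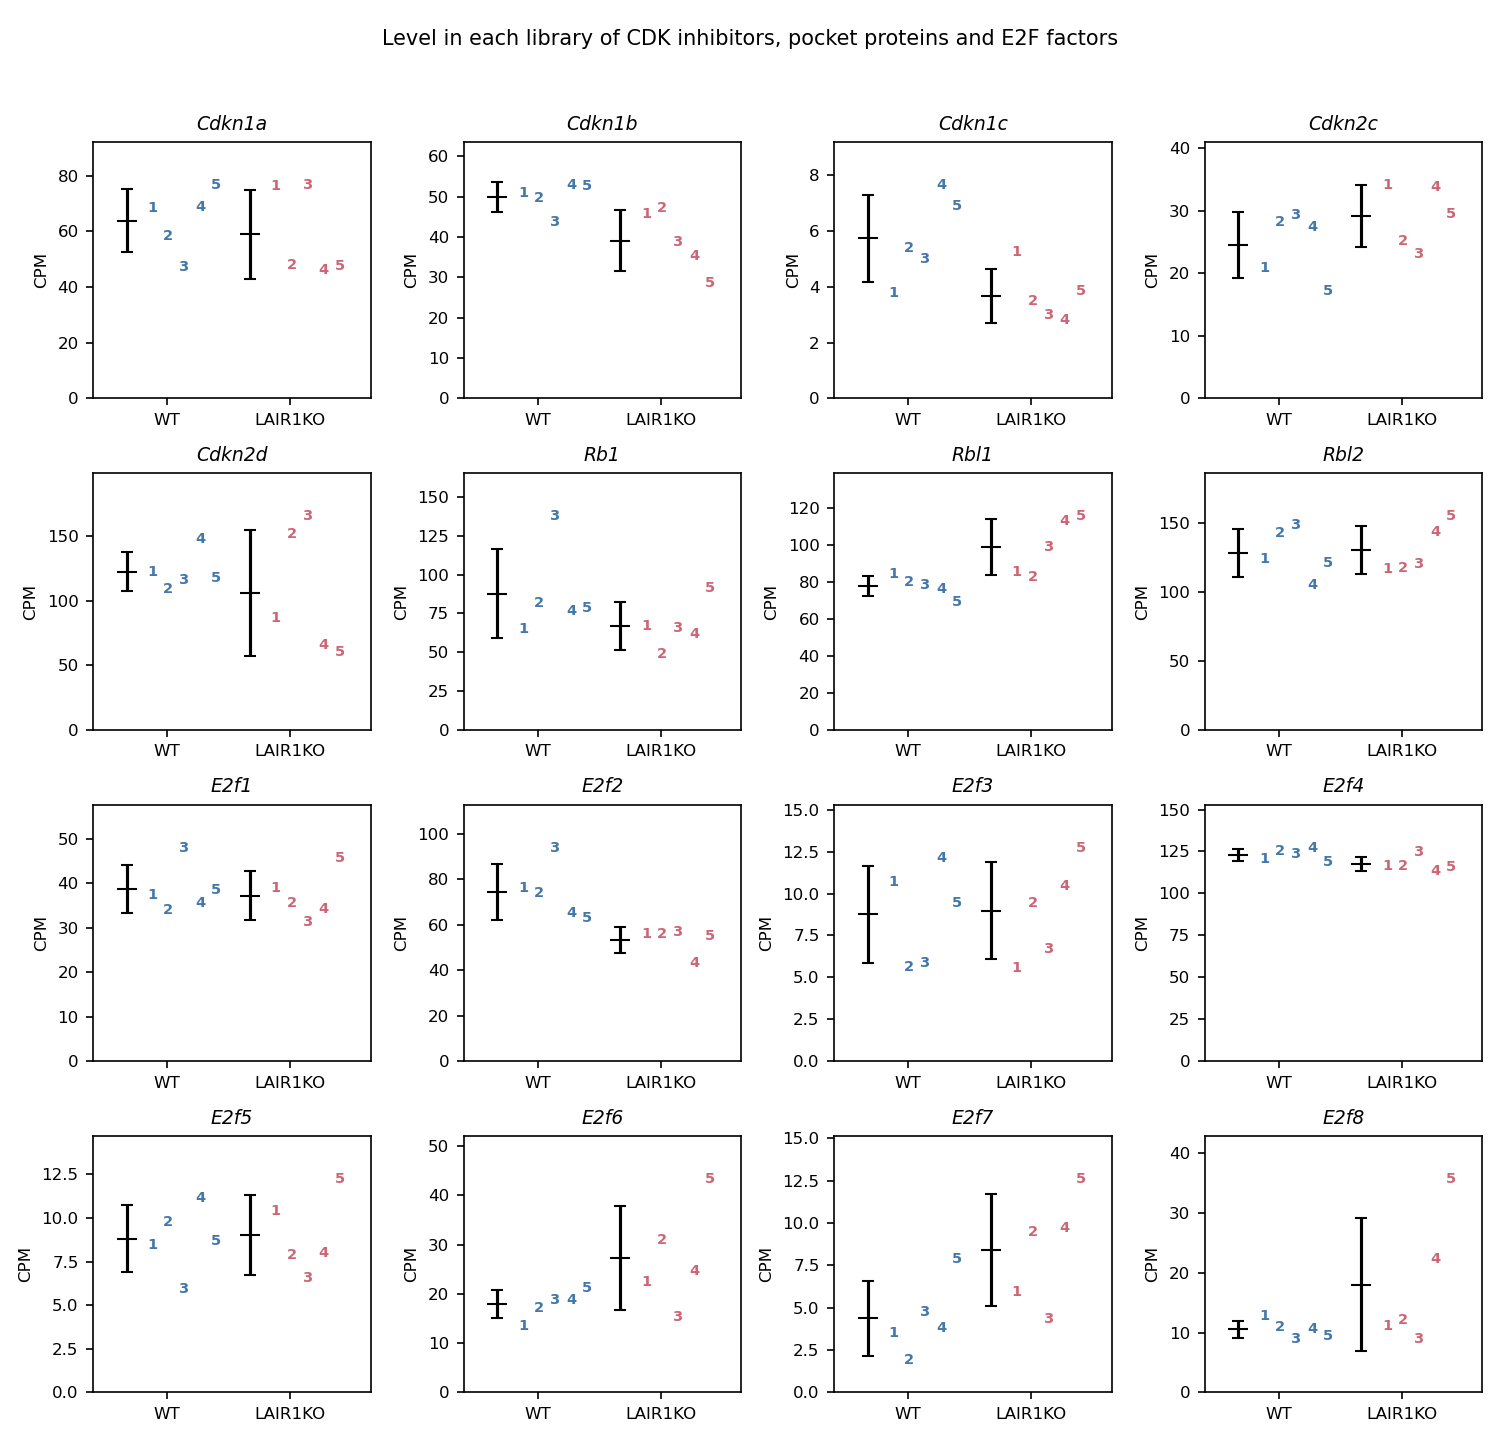
CPM (y axis, from 0) of 5 CIP/KIP and INK4 inhibitors, 3 pocket proteins and 8 E2F factors in each library. Digits give the replicate number, and black bars beside them the mean ± SD of 5 libraries. E2f2 is the panel whose groups do not overlap, and in Cdkn2d LAIR1KO replicates 2 and 3 lie above the WT range and replicates 1, 4 and 5 below it.

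The CDK-activating kinase and the G-type cyclins did not pass by edgeR, DESeq2 or limma voom, and none of these 3 genes had an unadjusted p under 0.05. Cdk7, the kinase that activates other CDKs and also acts in transcription, was at 38.4, 31.8, 38.0, 41.7 and 36.3 CPM in WT and 37.2, 46.4, 42.2, 45.1 and 40.9 CPM in LAIR1KO (interval -0.03 to 0.40, adjusted p = 0.356). Ccng1, a p53 target, was at 180.2, 192, 181, 173 and 188 CPM in WT and 157, 151, 234, 178 and 167 CPM in LAIR1KO, where replicate 3 was highest (interval -0.27 to 0.18, adjusted p = 0.879). Ccng2, a cyclin linked to cell cycle arrest, was at 83.5 to 103 CPM in WT and 84.0 to 95.7 CPM in LAIR1KO (interval -0.21 to 0.15, adjusted p = 0.898).

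Other genes of the pathway were read from lists chosen by function, with earlier results of these data known. Of 24 genes known as G1/S targets of E2F, 18 rose and 0 fell (median log2 fold change 0.89), and all 24 had values above 0. Over all tested genes 5.11% rose, 1.68% fell and 49.7% had values above 0. Rrm1, the large subunit of ribonucleotide reductase (1.08 ± 0.14, edgeR adjusted p = 9.52e-04), and the helicase subunits Mcm3 (0.89 ± 0.13) and Mcm5 (0.86 ± 0.13) had the smallest p-values. Without LAIR1KO replicates 4 and 5 the count of higher genes in this list was 10 (1.68% of all tested genes were then higher). Without WT replicates 1 and 4 it was 9 (1.89% of all tested genes). Of 23 G2/M targets of B-MYB and FOXM1, 22 rose and 0 fell (median 1.35), with 18 and 16 higher in those 2 fits. Kif2c, a kinesin that takes apart microtubules at centromeres, went from 9.05 to 38.8 CPM (2.10 ± 0.20, adjusted p = 2.22e-04). It had the smallest p of that list, and the next smallest were those of the proliferation marker Mki67 (1.35) and the ubiquitin-conjugating enzyme Ube2c (1.21). No gene of either list had lower values at an unadjusted edgeR p under 0.05, and DESeq2 and limma voom called 0 lower.

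Of 7 subunits and partners of the DREAM, MuvB and E2F complexes 1 rose, Tfdp1, the DNA-binding partner of E2F factors, from 25.1 to 51.5 CPM (1.04 ± 0.23, adjusted p = 0.0156). Its adjusted p was 0.0925 when LAIR1KO replicates 4 and 5 were left out and 0.0826 when WT replicates 1 and 4 were. Among 12 tested other regulators of cell cycle CDKs 3 rose. These were Pkmyt1, the membrane-bound kinase that inhibits CDK1 (1.23 ± 0.20, adjusted p = 0.00312), the CDK subunit Cks1b (0.86 ± 0.16, adjusted p = 0.00685) and Fbxo5, an inhibitor of the anaphase-promoting complex (0.76 ± 0.18, adjusted p = 0.0206). Pkmyt1 alone passed in either fit with 2 libraries left out. Fbxo5 did not pass without WT replicate 1, 3 or 4 or LAIR1KO replicate 4 or 5 (adjusted p = 0.0513 to 0.0575).

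Cyclins and CDKs that act in transcription gave no call. Of 12 tested, 0 passed by edgeR, DESeq2 or limma voom, 0 had an unadjusted p under 0.05, and the median log2 fold change was -0.02. Ccnk (-0.49 ± 0.23, adjusted p = 0.235) and Cdk9 (-0.19 ± 0.12, adjusted p = 0.390) had the smallest p-values. Of 14 tested p53 targets outside the members, 1 fell, the pro-apoptotic Bbc3 (-0.61 ± 0.13, adjusted p = 0.0158; 0.0802 without LAIR1KO replicates 4 and 5, 0.0656 without WT replicates 1 and 4), and the median was -0.17. Of 13 quiescence and antiproliferative genes 0 passed by edgeR and limma voom and 2 were lower by DESeq2. DESeq2 called 510 of all 13469 tested genes lower. Of the 13 genes 4 had an unadjusted edgeR p under 0.05, all with lower values (8.92% of all tested genes did). The median of that list was -0.35, and 12 of its 13 fold changes were below 0. Txnip (-0.35 ± 0.11, adjusted p = 0.0730) passed without LAIR1KO replicate 3 (-0.40, adjusted p = 0.0397), and the transcription factor Klf2 (-0.77 ± 0.25, adjusted p = 0.0906) without WT replicate 1 (-0.92, adjusted p = 0.0445).

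Markers of other marrow cells that divide or carry CDK inhibitors were read beside these results. Over all tested genes edgeR called 5.11% higher and 1.68% lower. Of these 13469 genes DESeq2 called 1006 higher and 510 lower, and limma voom 668 and 226. At an unadjusted edgeR p under 0.05, 12.9% had higher and 8.92% lower values. Erythroid markers, of which 4 of 10 were lower by edgeR, 5 by DESeq2 and 0 by limma voom, summed to 147 to 1402 CPM in WT and 97.7 to 200.8 CPM in LAIR1KO, with WT replicate 2 highest. Markers of B cells and their precursors, of which 0 of 7 tested were called by edgeR, DESeq2 or limma voom (1 lower at an unadjusted p under 0.05), summed to 966 to 1401 CPM in WT and 921 to 1401 CPM in LAIR1KO. The neutrophil markers, also with 0 of 10 called by the 3 tools (1 higher at an unadjusted p under 0.05), summed to 886 to 2353 CPM and 1360 to 1921 CPM. Macrophage markers had 6 of 8 lower (7 by DESeq2, 5 by limma voom), with sums of 1526 to 2056 CPM in WT and 843 to 1076 CPM in LAIR1KO. Classical monocyte markers had 2 of 7 tested higher by each of the 3 tools and 1 lower by DESeq2 alone, with sums of 687 to 1246 CPM and 978 to 1390 CPM. The T and NK cell markers summed to 6.43 to 21.9 CPM in WT and 21.1 to 47.2 CPM in LAIR1KO, nearly all of it from Nkg7, the 1 of 8 that was tested (11.1 and 28.2 CPM on average, higher), while the other 7 averaged under 0.6 CPM in either group. The sums of dendritic cell markers were 188 to 263 CPM and 185 to 266 CPM (1 higher and 2 lower of 7; 1 and 3 by DESeq2, 1 and 1 by limma voom), those of megakaryocytes 8.55 to 154.5 CPM and 3.25 to 11.6 CPM (1 of 3 lower), and those of eosinophils, basophils and mast cells 1.08 to 69.5 CPM and 26.9 to 130 CPM (1 of 5 higher; 2 by DESeq2, 0 by limma voom). Flt3 stands in both the progenitor and the dendritic cell list. None of the markers in these lists was at 0 in all libraries, and their part in the results was not tested.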

How the data were processed

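Bulk RNA-seq of 5 WT and 5 LAIR1KO libraries was analysed. The authors deposited 1 table of raw read counts per Ensembl gene, with no normalization. The submitters' processing notes name GSNAP and GRCm38.p5. The sources used here give no version, counter, annotation, strand setting or handling of reads with several matches, so genes that overlap on opposite strands or have near-identical copies may share reads. Columns were matched to libraries by the identifier in the sample title (0 unmatched). GENCODE M21 (GRCm38) named 52489 of 52636 identifiers and gave exon lengths.

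Counts were fitted in R 4.3.3 with edgeR 4.0.16: filterByExpr (minimum count 10, minimum total 15), TMM, and the two-sided quasi-likelihood test with genotype as the only term. P-values were adjusted by Benjamini-Hochberg over 13469 genes, with a threshold of 0.05. SE was the log2 fold change divided by the square root of F, and 95% intervals are unadjusted normal ones. CPM uses TMM-scaled library sizes. Total counts of 12106209 to 15356924 make 3 counts equal to 0.192 to 0.252 CPM. That limit covers counting error only, while the SE and 95% intervals of fold changes include spread between libraries. Chi-square tests between replicate libraries gave 14.4 to 71.0 per degree of freedom, far above what 1 library counted again would give. The fit was tested on simulated data.

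Alternatives were RLE, upper-quartile and library-total scaling, no filter, a 1 CPM filter (5 or more libraries), DESeq2 1.42.0, limma 3.58.1 voom, the replicate number as a block, a correction of each library for GC content and length of exons, each library left out in turn, and LAIR1KO replicates 4 and 5 or WT replicates 1 and 4 left out together. Counts over pathway lists in these fits were added after seeing the data. The members and lists were chosen with earlier results of these data known. Values are given per library for members past the threshold, for members that gained or lost a call in an alternative and for the most abundant of each role. Of each pathway list up to 3 called genes with the smallest p are named, or the 2 with the smallest p. Promoter sequences are from RefSeq (GRCm38.p6).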

Additional observations from a re-analysis of the deposited data

Results flagged for a closer look

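In 4 of the 78 groups of 5 libraries (39 tested members in WT and LAIR1KO) the highest or lowest library stood apart from the others by more than Dixon's 95% limit, where chance alone gives about 3.9. Ccnd3 was at 242 CPM in LAIR1KO replicate 1 and at 179 to 196 CPM in the other LAIR1KO libraries. Rb1 was at 138 CPM in WT replicate 3 and at 64.8 to 81.5 CPM in the other WT libraries. E2f2 was at 43.4 CPM in LAIR1KO replicate 4 and at 55.1 to 56.7 CPM in the other LAIR1KO libraries. E2f4 was at 124 CPM in LAIR1KO replicate 3 and at 113 to 116 CPM in the others.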

How the results depend on the processing

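The count of 914 changed genes became 1379 with library totals, 1516 with DESeq2, 376 without LAIR1KO replicates 4 and 5 and 338 without WT replicates 1 and 4, and ranged from 535 to 1170 with 1 library left out. Higher genes made up 75.3% of calls, and 90.1% with library totals. The 14 higher members became 7 without LAIR1KO replicates 4 and 5 and 8 without WT replicates 1 and 4, ranged from 11 to 15 with 1 library left out, and lay between 12 and 16 in the other fits. The 1 lower member, E2f2, became 0 lower with library totals and in both fits without 2 libraries, and 0 to 1 with 1 library left out (edgeR; 4 members had lower values at an unadjusted p under 0.05 in the main comparison). Lair1 ranged from -11.49 to -10.29 on the log2 scale with 1 library left out. Same-numbered WT and LAIR1KO libraries did not deviate together (correlations -0.08 to 0.05). With the replicate number as a block, 600 genes, 12 members higher and 0 lower passed; Cdk2, Cdc25b and E2f2 did not (adjusted p = 0.0620, 0.114 and 0.0547).

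Some log2 fold changes that were near 0 and not called changed sign. With library totals they were 0.082 for Ccng1, 0.103 for Ccng2, 0.0041 for Cdkn1a, 0.078 for E2f1 and 0.060 for E2f4. Without LAIR1KO replicates 4 and 5 they were 0.069 for Cdkn1a, 0.13 for Cdkn2d, -0.12 for Rbl2, -0.28 for E2f3 and -0.088 for E2f5. Rbl2 was at -0.077 without WT replicates 1 and 4. With the GC and length trend removed Rbl2 was at -0.050 and E2f3 at -0.027. With 1 library left out the values ranged from -0.16 to 0.0046 for Ccng1, -0.067 to 0.0075 for Ccng2, -0.15 to 0.029 for E2f1, -0.052 to 0.082 for Rbl2, -0.14 to 0.18 for E2f3 and -0.10 to 0.14 for E2f5. The median log2 fold change over all tested genes was 0.13 with library totals and -0.0018 in the main comparison. The cause of these changes of sign was not tested. Depth limits Cdkn2a and Cdkn2b.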
